A study of Mus musculus with 24 samples.

Results

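Tek, Tie1, Esam, Jam2, Jam3 and Pecam1 encode the Tie receptor tyrosine kinases and a group of immunoglobulin-domain adhesion proteins of endothelial junctions, and all of them are also used as surface markers or niche receptors of blood stem cells. They were taken by name from the gene count table of the series, where all 6 were found among 24421 gene lines, and all 6 were among the 14205 genes with enough counts to test. The libraries are bulk RNA-seq of bone marrow cells from 4 young mice of 12 weeks and 4 aged mice of 107 weeks, all C57BL/6 males, enriched for CD117 and sorted as lineage-negative, Sca1-positive, Kit-positive cells. The gate for long-term hematopoietic stem cells (LT-HSC) took CD150-positive cells without CD48. Short-term stem cells (ST-HSC) had neither antigen, and multipotent progenitors (MPP) had CD48 only. No group carried a transgene, a deletion or a treatment. Each of the 6 groups (young or aged LT-HSC, ST-HSC and MPP) has 4 libraries, 24 in all. The labels count 4 mice per age but tie no library number to a mouse, so p-values measure the spread between these libraries. With 4 libraries in each group, libraries of different populations of an age must share mice. The main tests treat all 24 libraries as independent.

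Tek, also called Tie2, binds the angiopoietins, and its ligand Angpt1 is known as a signal for stem cell quiescence in the marrow. Tie1 is a related receptor without a well-defined ligand of that kind that pairs with Tek and modulates its signal. ESAM, JAM-B (Jam2), JAM-C (Jam3) and PECAM-1 (CD31) sit at cell contacts, where JAM-B and JAM-C bind each other, ESAM binds itself, and PECAM-1 binds itself and takes part in leukocyte passage through vessel walls.

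Tek and Tie1 share chromosome 4, Esam and Jam3 share chromosome 9, and Jam2 and Pecam1 each lie on another chromosome. In the GENCODE vM21 annotation of GRCm38, Tek spans chr4:94739289-94874976 on the plus strand and Tie1 chr4:118471191-118490061 on the minus strand. Esam spans chr9:37528078-37538319 (plus) and Jam3 chr9:27097384-27155421 (minus). Jam2 spans chr16:84774123-84825928 (plus) and Pecam1 chr11:106654217-106750628 (minus). Exons of Jam3 overlap those of the antisense gene Gm48796 over 1058 bases, and since the library chemistry does not mark strand, reads from that stretch cannot be assigned to one of them.

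Promoter sequence from RefSeq (GRCm38.p6) was matched for 2 of the 6 genes, Tek and Tie1. It is shown because ETS factors such as Erg and Fli1, whose RNAs are described below, bind the core GGAA in endothelial and stem cell genes. The stretch of each promoter with the most cores is printed 5′ to 3′ on the gene's strand, with capitals marking GGAA or its reverse complement. The Tek stretch is chr4:94739187-94739216 (plus strand, bases -102 to -73 from the RefSeq start), and the Tie1 stretch is chr4:118490052-118490081 (minus strand, bases -232 to -203), which reaches into the GENCODE span of the gene.
Tek: gcttgttattcaaTTCCtggcctatgagag
Tie1: cGGAAgccactggcTTCCtccctTTCCtgt
In the window from 250 bases before to 50 bases after the RefSeq start, Tie1 held 9 ETS cores on either strand, a number that 1.59% of 32851 promoters reach. This Tie1 window, chr4:118489800-118490099, lies mostly within the GENCODE span of the gene, so most of it is not upstream of the GENCODE start. Tek held 2 cores, which 84.6% of promoters reach, and the median promoter held 3. Cores this short are frequent, and 96.0% of promoters had at least 1. The longer form AGGAAG, which contains the core, matched 2 times in Tie1 and 0 times in Tek, and 35.4% of promoters held it. The GATA motif GATAA (25.4% of promoters) matched 1 time in Tek and 0 times in Tie1. The E-box CANNTG (72.3%) matched 2 times in Tek and 1 time in Tie1, and the GC box GGGCGG (35.7%) matched neither. All were searched on both strands, and a match is a description of the letters only.

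Library totals ran from 7307151 to 12946550 counts (median 8652940). RNA of Slamf1 and Cd48 mostly followed the gates. Slamf1, which encodes CD150, averaged 26.2 CPM (counts scaled to library size with TMM factors) in young and 72.1 in aged LT-HSC and 0.789 or less in each other group. Cd48 averaged 66.4 and 90.2 CPM in young and aged MPP. In young and aged ST-HSC, gated without CD48, it averaged 11.5 and 14.4 CPM, against 1.25 and 0.178 CPM in LT-HSC. The 14 endothelial markers were mixed. Cdh5 (VE-cadherin) averaged at most 1.51 CPM in any group, Plvap at most 1.97, and Lyve1 was at 0 in 22 libraries. Aqp1 averaged 21.2 to 88.8 CPM over the groups, Stab2 reached 16.5 CPM in aged MPP and Flt4 8.34 CPM in aged LT-HSC. Kdr averaged 8.98 CPM in young and 32.7 CPM in aged LT-HSC, and Cldn5 0.910 and 37.2 CPM. The list summed to 0.00442 to 0.00724% of counts in young LT-HSC and 0.0121 to 0.0156% in aged LT-HSC. In young and aged ST-HSC it was 0.00179 to 0.0109% and 0.00105 to 0.0178%, and in MPP 0.00127 to 0.00563% and 0.00245 to 0.00787%. Granulocyte markers stood apart in some libraries: young LT-HSC library 1 had 0.0972% of its counts in them against at most 0.00431% in the other 3, and aged ST-HSC libraries 1, 2 and 3 had 0.246 to 0.309% against 0.0171% in library 4. Results were also computed with 3 libraries left out together (library 1 of young LT-HSC, libraries 2 and 3 of aged ST-HSC), a choice made after seeing the data. Aged ST-HSC library 1, with the highest granulocyte share of its group (0.309%), was kept. Leaving out the 3 libraries therefore does not remove all aged ST-HSC libraries high in these markers. Aged ST-HSC library 4 was the highest of its group in monocyte (0.0929%), B-cell and plasma cell (0.0433%) and erythroblast markers (0.0502%).

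Per kilobase of exon, Tie1 was the most abundant of the 6 RNAs in every group except aged MPP. It stood at 110 ± 4.42 CPM per kb (SD, n = 4) in young LT-HSC, where Esam had 43.7 ± 3.24, Tek 14.9 ± 2.17, Pecam1 14.0 ± 3.01, Jam3 8.38 ± 1.93 and Jam2 2.74 ± 0.654. In aged MPP Pecam1 led with 36.4 ± 7.25 CPM per kb, and Tie1 had 17.0 ± 4.49. Tek, Tie1, Esam, Jam2 and Jam3 were highest in an LT-HSC group, and Pecam1 ran the other way, highest in aged MPP and lowest in young LT-HSC.

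**Figure D1:**
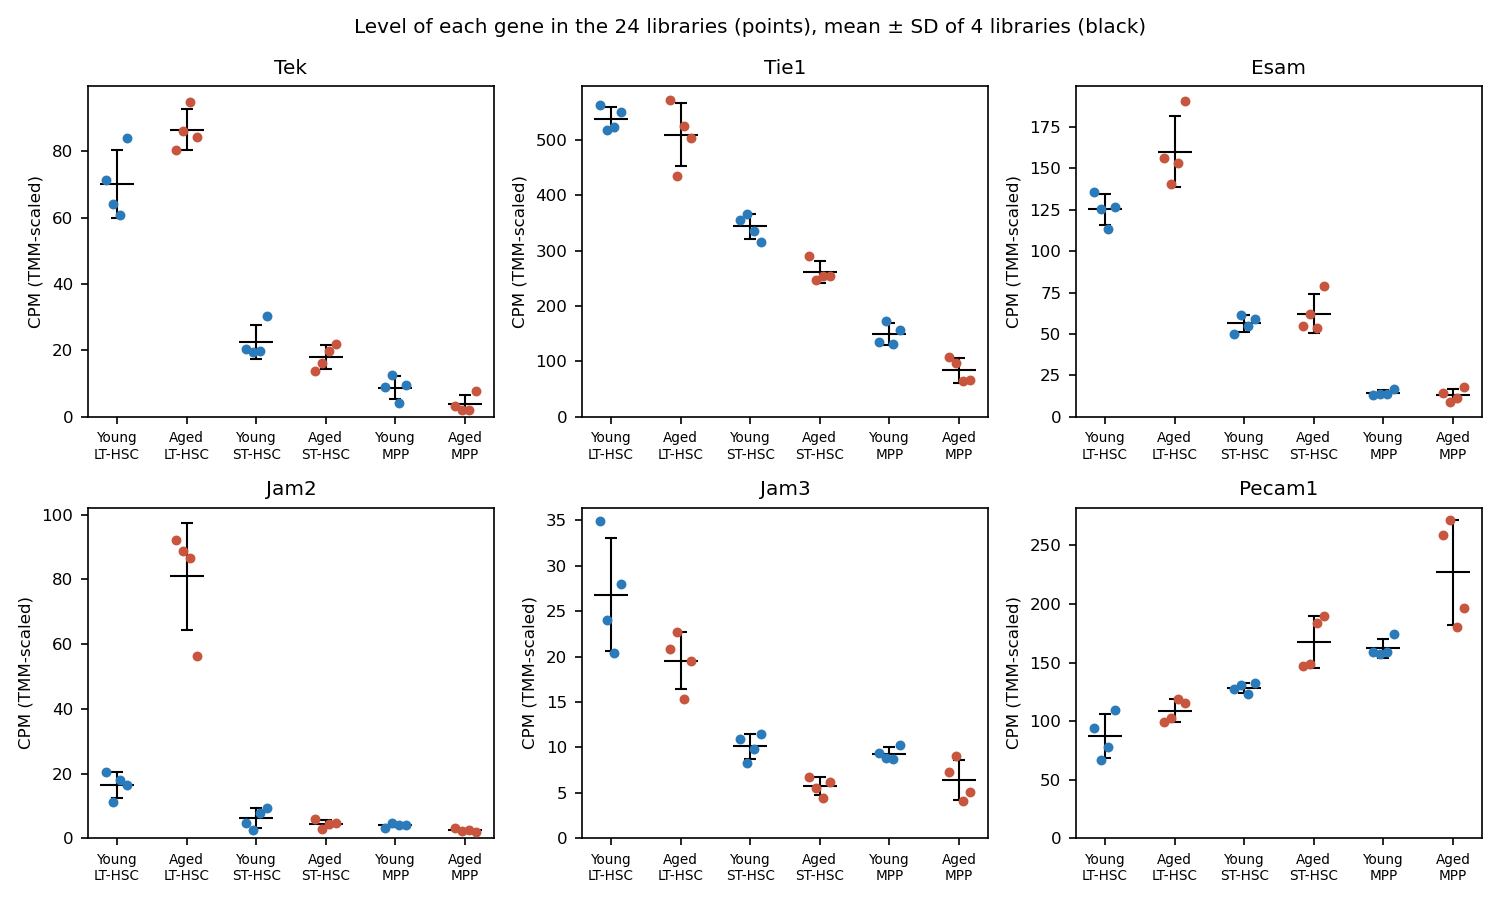
Level of each gene in CPM for the 24 libraries, in 6 panels, with 1 point per library and the mean ± SD of 4 libraries for each age and population. Jam2 stands out by the aged LT-HSC libraries (56.3 to 92.1 CPM), and Pecam1 is the only panel that climbs from LT-HSC to MPP.

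Adjusted p-values below come from edgeR's quasi-likelihood test, fitted to all 24 libraries and adjusted by Benjamini-Hochberg over the 14205 genes, two-sided, with 0.05 as the threshold. In bulk libraries a smaller share of expressing cells and less RNA per cell cannot be told apart, which holds for every level given here.

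Tek RNA stepped down at each stage. The young LT-HSC libraries had 71.5, 64.2, 60.8 and 83.9 CPM, the young ST-HSC libraries 20.5, 19.4, 19.8 and 30.4 CPM, and the young MPP libraries 8.96, 12.5, 4.02 and 9.64 CPM. None of these ranges overlap. The mean was 3.11 times as high in young LT-HSC as in young ST-HSC (log2 difference 1.64, adjusted p = 0.000355) and 2.56 times as high in young ST-HSC as in young MPP (1.36, adjusted p = 0.0035). In aged mice the LT-HSC libraries had 80.4, 86.1, 95.0 and 84.4 CPM, the ST-HSC libraries 13.8, 16.2, 19.9 and 22.1 CPM, and the MPP libraries 3.26, 2.13, 1.97 and 7.85 CPM. The aged steps were 4.81 times from ST-HSC to LT-HSC (2.27, adjusted p = 3.32e-06) and 4.73 times from MPP to ST-HSC (2.25, adjusted p = 3e-05). Aged MPP values rest on 33, 24, 21 and 80 counts.

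Tie1, the partner receptor, had the same order with smaller steps. Young LT-HSC libraries had 563, 518, 523 and 551 CPM, young ST-HSC libraries 356, 367, 336 and 316 CPM, and young MPP libraries 136, 173, 131 and 157 CPM. Both young steps passed, at 1.57 times between LT-HSC and ST-HSC (0.65, adjusted p = 0.000548) and 2.30 times between ST-HSC and MPP (1.20, adjusted p = 3.05e-07). Aged LT-HSC libraries had 572, 435, 526 and 504 CPM, aged ST-HSC libraries 291, 248, 254 and 255 CPM, and aged MPP libraries 107, 97.7, 64.0 and 65.8 CPM. The aged steps were 1.95 times (0.96, adjusted p = 1.26e-06) and 3.13 times (1.65, adjusted p = 8.73e-10). Because Tek stepped down more, the Tie1 to Tek ratio per kilobase was 7.45 ± 0.828 (SD, n = 4) in young LT-HSC and 5.67 ± 0.843 in aged LT-HSC, against 15.2 ± 3.59 and 14.5 ± 4.06 in young and aged ST-HSC. In MPP the ratio was 18.7 ± 8.49 and 28.7 ± 15.0, where the low Tek counts widen it to a range of 8.04 to 43.9 in aged libraries.

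Esam RNA also stepped down at each stage, at both ages. Young LT-HSC libraries had 136, 126, 113 and 126 CPM, young ST-HSC libraries 49.9, 61.8, 54.7 and 59.4 CPM, and young MPP libraries 13.1, 14.0, 13.9 and 17.0 CPM, with no overlap. The young steps were 2.22 times (1.15, adjusted p = 2.24e-06) and 3.90 times (1.96, adjusted p = 6.6e-09). Aged LT-HSC libraries had 157, 140, 153 and 191 CPM, aged ST-HSC libraries 54.6, 62.0, 53.8 and 78.8 CPM, and aged MPP libraries 14.1, 8.71, 11.4 and 17.9 CPM. The aged steps were 2.57 times (1.36, adjusted p = 4.71e-08) and 4.77 times (2.26, adjusted p = 8.63e-11).

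Jam2 and Jam3 separated LT-HSC from the other populations but hardly ST-HSC from MPP. Jam2 in young LT-HSC libraries was 20.6, 11.2, 17.9 and 16.4 CPM, in young ST-HSC libraries 4.88, 2.62, 7.77 and 9.46 CPM, and in young MPP libraries 3.10, 4.75, 4.26 and 4.22 CPM. The LT-HSC libraries lay above the rest (2.68 times ST-HSC, log2 1.42, adjusted p = 0.000429). Young ST-HSC and MPP overlapped, with a difference of 0.60 (95% interval -0.00 to 1.20, adjusted p = 0.155) that passed only without young ST-HSC library 2 (0.84, adjusted p = 0.0268). In aged mice the LT-HSC mean of Jam2 was 18.1 times that of ST-HSC (4.15, adjusted p = 1.55e-11). Aged ST-HSC and MPP differed by 0.90 (adjusted p = 0.0264) with overlapping libraries, 5.96, 2.98, 4.27 and 4.68 CPM against 3.06, 2.13, 2.44 and 2.06 CPM. That call was lost in 6 of 16 alternatives (adjusted p up to 0.163), among them leaving out aged ST-HSC library 1 (0.112) or aged MPP library 2 (0.0676), 3 (0.0519) or 4 (0.0711).

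Jam3 in young LT-HSC libraries was 34.9, 24.0, 20.4 and 28.0 CPM, in young ST-HSC libraries 10.9, 8.30, 9.85 and 11.5 CPM, and in young MPP libraries 9.42, 8.85, 8.76 and 10.2 CPM. LT-HSC lay 2.65 times above ST-HSC (1.41, adjusted p = 2.29e-05) in young mice and 3.41 times in aged mice (1.76, adjusted p = 5.07e-07). ST-HSC and MPP overlapped at both ages, with differences of 0.12 (95% interval -0.33 to 0.56, adjusted p = 0.763) in young and -0.15 (-0.61 to 0.31, adjusted p = 0.657) in aged mice.

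Pecam1 was the one gene of the 6 that was lower in LT-HSC. Young LT-HSC libraries had 94.4, 67.1, 78.1 and 110 CPM, young ST-HSC libraries 127, 131, 123 and 133 CPM, and young MPP libraries 159, 157, 159 and 175 CPM, so that every young ST-HSC library lay above every young LT-HSC library. The young LT-HSC mean was 0.680 times the ST-HSC mean (log2 -0.55, adjusted p = 0.00416). The young ST-HSC and MPP libraries did not overlap either, but their difference of -0.34 missed the threshold (95% interval -0.60 to -0.07, adjusted p = 0.0658) and passed with only these groups in the model (adjusted p = 0.00288). In aged mice LT-HSC were 0.651 times ST-HSC (-0.62, adjusted p = 0.000558). Aged ST-HSC and MPP differed by -0.44 (adjusted p = 0.0108) with overlapping libraries, a call lost without aged MPP library 2 (0.0570) and without the 3 libraries named above (0.0667). Granulocyte markers were 0.00290 to 0.0972% of counts in young LT-HSC and 0.0760 to 0.325% in young MPP, and 0.00690 to 0.00792% and 0.151 to 0.540% in the aged groups. Their part in the Pecam1 order was not tested.

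Against the share of all tested genes, the population comparisons called most of the 6. All 6 differed between LT-HSC and ST-HSC, where 12.5% of tested genes were called in young mice and 32.3% in aged mice. Between ST-HSC and MPP 3 were called in young mice (Tek, Tie1 and Esam, background 20.6%) and 5 in aged mice (all but Jam3, background 29.9%). All 6 differed between LT-HSC and MPP, where the background was 37.2% in young and 56.8% in aged mice. The largest of these differences were Jam2 in aged mice (33.4 times, log2 5.06, adjusted p = 2.17e-13) and Tek in aged mice (22.8 times, 4.51, adjusted p = 2.52e-10). The comparisons within an age share groups, so they are not independent of each other.

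**Figure D2:**
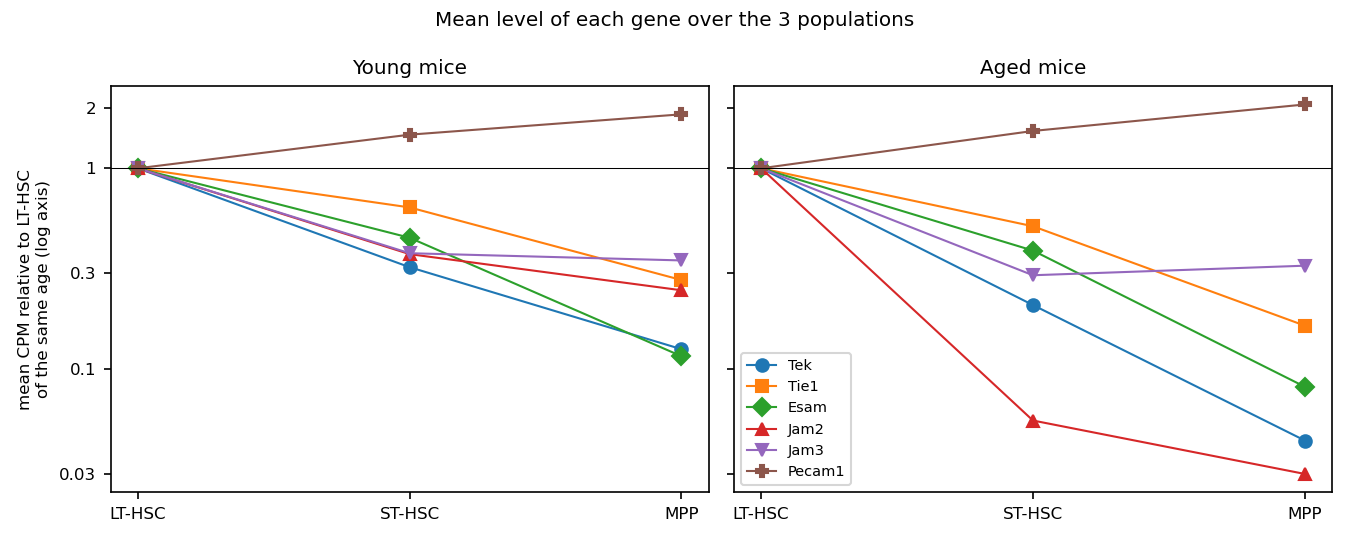
Mean CPM of each gene in LT-HSC, ST-HSC and MPP relative to LT-HSC of the same age, on a log axis, with young mice in the left panel and aged mice in the right; each point is a ratio of means of 4 libraries, with no error drawn. Pecam1 climbs above 1 in both panels, the other 5 genes fall below it, and Jam2 drops furthest in aged mice.

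The age comparison asks how the same sorted populations differ between 12-week and 107-week mice. In LT-HSC 1 of the 6 genes passed, Jam2, where 18.9% of all tested genes did (9.98% higher and 8.87% lower in aged). Jam2 RNA was 92.1, 88.7, 86.5 and 56.3 CPM in the aged LT-HSC libraries, against 20.6, 11.2, 17.9 and 16.4 CPM in the young. Every aged library lay above every young one, and even the lowest, library 4, was well clear of them. The mean rose 4.88 times, from 16.6 ± 3.95 to 80.9 ± 16.5 CPM (SD, n = 4), with a log2 change of 2.29 ± 0.26 (SE, adjusted p = 4.2e-07). The change was between 2.13 and 2.41 and passed in all 16 alternatives. The summed share of megakaryocyte markers was also higher in aged LT-HSC (0.381 to 0.413% of counts against 0.181 to 0.254%). Of 13 tested, 3 were called higher and 1 lower (30.8%, against 18.9% of all tested genes). Vwf went from 344 to 1230 CPM and Itgb3 from 158 to 1006 CPM, while Pf4 went from 30.8 to 5.31 CPM. The part of these markers in the Jam2 result was not tested. Of 10 tested endothelial markers 2 were also higher with age in LT-HSC, Kdr and Cldn5 (levels above), and 0 were lower, while Cdh5 averaged 0.612 CPM in young and 0.287 CPM in aged libraries. Their part was not tested either. Markers of LT-HSC were 0.276 to 0.289% of counts in aged and 0.199 to 0.263% in young LT-HSC. Of 8 tested, 5 were called higher and 0 lower (62.5%, against 18.9% of all tested genes). Markers of MPP were 0.0104 to 0.0117% in aged and 0.0189 to 0.0298% in young LT-HSC, with 4 of 6 called lower and 0 higher. The part of either list in the Jam2 result was not tested.

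The other 5 genes did not pass in LT-HSC. Esam came closest, with aged libraries (140 to 191 CPM) all above the young (113 to 136 CPM), a change of 0.35 (95% interval 0.06 to 0.65) and an adjusted p of 0.0876. It passed with limma-voom (adjusted p = 0.0234) and with only the LT-HSC groups in the model (0.0215). Pecam1 changed by 0.32 (0.05 to 0.59, adjusted p = 0.0919) with overlapping libraries and passed without young LT-HSC library 4 (0.43, adjusted p = 0.0238). For Tek the change was 0.30 (-0.27 to 0.88, adjusted p = 0.498), for Tie1 -0.08 (-0.34 to 0.17, adjusted p = 0.706) and for Jam3 -0.45 (-0.88 to -0.03, adjusted p = 0.130). Young and aged libraries overlapped for Tek, Tie1 and Jam3, and Jam3 was 20.8, 22.7, 15.3 and 19.5 CPM in aged LT-HSC.

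The makeup of the JAM family differed in aged LT-HSC. F11r encodes JAM-A, the third classical member, and was added after its values were seen. Of the summed CPM per kb of F11r, Jam2 and Jam3 in young LT-HSC, F11r made up 70.6 ± 3.72%, Jam3 22.2 ± 3.50% and Jam2 7.24 ± 1.30% (SD, n = 4). In aged LT-HSC F11r made up 65.9 ± 3.88%, Jam2 23.4 ± 3.77% and Jam3 10.8 ± 1.84%. The ratio of Jam2 to Jam3 per kb was 0.248 to 0.465 in the young libraries and 1.53 to 2.99 in the aged, while group means were 0.218 to 0.416 in ST-HSC and MPP of both ages. F11r itself rose in aged LT-HSC, from 70.7 ± 8.94 to 99.7 ± 6.36 CPM (0.50, adjusted p = 0.00559).

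**Figure D3:**
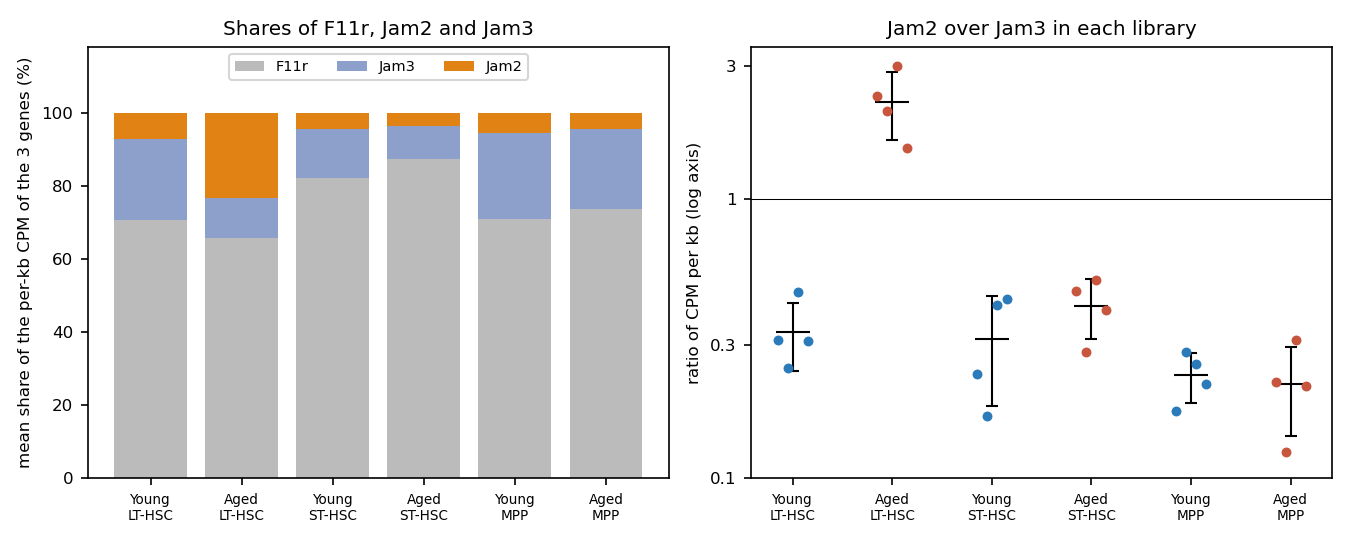
Share of F11r, Jam2 and Jam3 in their summed CPM per kb for the 6 groups, as means of 4 libraries in stacked bars from 0 (left), and the Jam2 to Jam3 ratio of CPM per kb in each library with the mean ± SD on a log axis (right). The Jam2 block is 23.4% in aged LT-HSC and at most 7.24% in each other group, and the ratio is above 1 in the aged LT-HSC libraries only.

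In ST-HSC 1 of the 6 genes passed with age, Jam3, against 5.79% of all tested genes (3.58% higher and 2.21% lower in aged). Aged ST-HSC libraries had 6.75, 5.58, 4.40 and 6.20 CPM and young ST-HSC libraries 10.9, 8.30, 9.85 and 11.5 CPM, which did not overlap. The aged values rest on 33 to 85 counts and the young on 76 to 104. The mean ratio was 0.566, and Jam3 fell by 0.81 ± 0.22 on the log2 scale (SE, adjusted p = 0.0294). Granulocyte markers were 0.0171 to 0.309% of counts in aged and 0.00874 to 0.0383% in young ST-HSC, with 4 of 9 tested called higher and a median log2 change of 4.25. Monocyte markers were 0.0336 to 0.0929% and 0.0216 to 0.0340%, with 3 of 12 called higher and a median of 2.92. Their part in the ST-HSC results was not tested. The Jam3 call was lost in 9 of 16 alternatives (adjusted p from 0.0136 to 0.190). It was lost with limma-voom (0.0929), with only the ST-HSC groups in the model (0.0820), and without aged ST-HSC library 2 (0.0658), 3 (0.0921) or 4 (0.050). It was also lost without young ST-HSC library 1 (0.0754), 3 (0.0622) or 4 (0.0789), and without the 3 libraries named above (0.190).

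Tie1 and Pecam1 missed the threshold in ST-HSC although their ages did not overlap. Tie1 was 291, 248, 254 and 255 CPM in aged against 316 to 367 CPM in young libraries, a change of -0.39 (95% interval -0.65 to -0.14, adjusted p = 0.0613) that passed with DESeq2 (0.0315), limma-voom (0.0371) and only the ST-HSC groups in the model (0.0134). Pecam1 was 147, 149, 184 and 189 CPM in aged against 123 to 133 CPM in young libraries, a change of 0.38 (0.12 to 0.65, adjusted p = 0.0817), with 0.0418 when only the ST-HSC groups were in the model. Tek (-0.32, adjusted p = 0.594), Esam (0.14, adjusted p = 0.651) and Jam2 (-0.44, adjusted p = 0.415) did not pass.

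In MPP 3 of the 6 genes passed with age, against 9.79% of all tested genes (5.53% higher and 4.27% lower in aged): Tie1 and Tek fell, and Pecam1 rose. Tie1 had 107, 97.7, 64.0 and 65.8 CPM in aged and 136, 173, 131 and 157 CPM in young MPP libraries. The ages did not overlap, and Tie1 fell by 0.84 ± 0.13 on the log2 scale (SE, adjusted p = 0.000109), a call kept in all 15 alternatives (adjusted p up to 0.0187). Markers of LT-HSC (8 genes, none of the 6) were also lower in aged MPP, at 0.0410 to 0.0527% of counts against 0.0755 to 0.0990%, with 4 of the 8 called lower. B-cell and plasma cell markers were higher, at 0.195 to 0.899% against 0.0109 to 0.0412%, with 5 of 9 called higher. The part of either in the Tie1 and Tek results was not tested.

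Tek had 3.26, 2.13, 1.97 and 7.85 CPM in aged MPP libraries and 8.96, 12.5, 4.02 and 9.64 CPM in young ones. Aged library 4 and young library 3 cross, so the ages overlap. Tek fell by 1.21 ± 0.35 (SE, adjusted p = 0.0277), and 7 of 15 alternatives lost the call. It was lost with only the MPP groups in the model (adjusted p = 0.135), without aged MPP library 1 (0.0666), 2 (0.0849) or 3 (0.0836), and without young MPP library 1 (0.0558), 2 (0.111) or 4 (0.0648). Without aged MPP library 4 the change was -1.83 (adjusted p = 0.000299).

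Pecam1 had 259, 272, 181 and 196 CPM in aged MPP libraries, all above the young ones at 159, 157, 159 and 175 CPM. The mean went from 162 ± 8.23 to 227 ± 45.2 CPM (SD, n = 4), a rise of 0.48 ± 0.13 on the log2 scale (SE, adjusted p = 0.0149). The call was lost without aged MPP library 1 (adjusted p = 0.0535) or 2 (0.0663), the highest pair. Monocyte markers were 0.0370 to 0.0993% of counts in aged and 0.0241 to 0.0392% in young MPP. Their part in the Pecam1 result, and that of the B-cell and plasma cell markers, was not tested. Jam2 (-0.75, adjusted p = 0.134), Jam3 (-0.54, adjusted p = 0.123) and Esam (-0.15, adjusted p = 0.638) did not pass in MPP. Jam2 ages did not overlap, and Jam3 passed without aged MPP library 2 (-0.76, adjusted p = 0.0360).

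**Figure D4:**
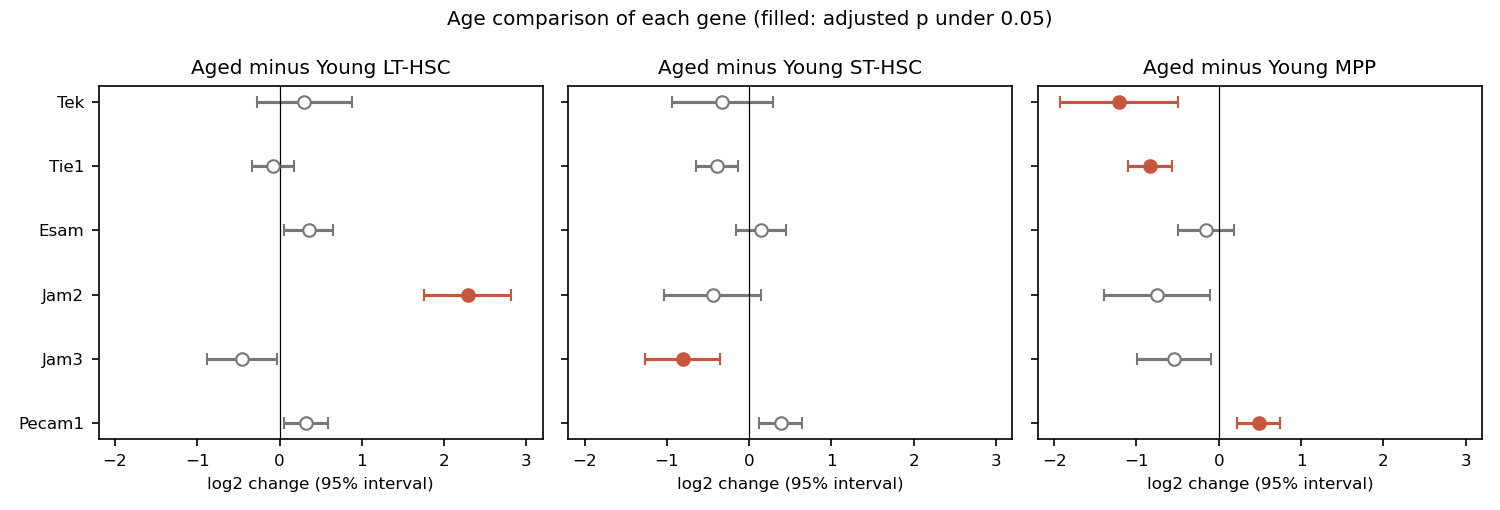
Log2 change from young to aged with its 95% interval for each gene in LT-HSC, ST-HSC and MPP, from the model of all 24 libraries; filled points passed the threshold. Jam2 in LT-HSC stands apart at 2.29, Tie1 goes from -0.08 in LT-HSC to -0.84 in MPP, and Pecam1 lies above 0 in all 3 populations.

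The difference between age effects was tested for each pair of populations. The age change of Jam2 was higher in LT-HSC than in ST-HSC by 2.73 (adjusted p = 8.94e-05), where 4.05% of all tested genes differed, and than in MPP by 3.03 (adjusted p = 1.84e-05), where 9.93% did. Both held in 24 of 24 alternatives. Tie receptors also differed between LT-HSC and MPP: by 0.75 for Tie1 (adjusted p = 0.00711), kept in 24 of 24 alternatives, and by 1.51 for Tek (adjusted p = 0.0329). The Tek call was lost in 13 of 24 alternatives, with adjusted p from 0.000394 to 0.0873. These were no filter on low counts (0.0544), only the groups of the comparison (0.0642), without the 3 libraries named above (0.0508), and without 1 library each of aged LT-HSC 2 or 3 (0.0527, 0.0590), young LT-HSC 2 or 3 (0.0624, 0.0689), aged MPP 1, 2 or 3 (0.0642, 0.0733, 0.0706) and young MPP 1, 2 or 4 (0.0560, 0.0873, 0.0593). Esam (0.51, adjusted p = 0.148), Jam3 (0.09, adjusted p = 0.903) and Pecam1 (-0.17, adjusted p = 0.620) did not pass between LT-HSC and MPP. Esam passed there without aged MPP library 4 (adjusted p = 0.0408). Between ST-HSC and MPP 0 of the 6 differed by edgeR's test, by DESeq2 or by limma-voom, where 0.465% of all tested genes did by edgeR, and Tie1 was the 1 gene with an unadjusted p under 0.05 (0.0196).

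RNAs of the Tek ligands were present in the same libraries. Angpt1 averaged 340 ± 12.3 CPM (SD, n = 4) in young and 426 ± 51.4 in aged LT-HSC, 300 ± 15.5 and 307 ± 69.2 in ST-HSC, and 213 ± 57.6 and 157 ± 21.5 in MPP. Angpt2, which can block Tek, was 26.8 to 47.9 CPM over the group means, and Angpt4 was at most 3.03 CPM. Stromal cell markers were 0.0596% of counts in young MPP library 1, against at most 0.0189% in the other young MPP libraries. Their part in the ligand levels was not tested. Of 24 tested Tie pathway genes other than the receptors, 4 rose and 2 fell with age in LT-HSC (median log2 change 0.23, against 0.00 over all tested genes). That is 25.0% of the list, near the 18.9% of all tested genes. Ptprj, a receptor tyrosine phosphatase of blood and vessel cells, rose by 0.52 (adjusted p = 0.00049), and Foxo1, a transcription factor held in check by Akt, by 0.60 (adjusted p = 0.0091). In ST-HSC 0 of 24 passed by edgeR, with 1 at an unadjusted p under 0.05 (median 0.02, background 5.79%), and in MPP 1 rose and 1 fell (median -0.05), 8.33% of the list against 9.79% of all tested genes.

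Among 47 tested junctional genes other than the 6, 8 rose and 2 fell with age in LT-HSC (median 0.13), 1 rose and 1 fell in ST-HSC (median 0.08), and 3 rose and 2 fell in MPP (median -0.02). These are 21.3%, 4.26% and 10.6% of the list, near the background of 18.9%, 5.79% and 9.79%. Cldn5, the tight junction claudin of endothelium, went from 0.910 ± 1.06 to 37.2 ± 11.8 CPM in LT-HSC (5.37, adjusted p = 0.0003), and was at most 0.447 CPM on average in ST-HSC and MPP of either age. Cd34, a sialomucin of stem cells and endothelium, fell by 1.02 in LT-HSC (adjusted p = 8.4e-07), and Inadl, a PDZ scaffold of tight junctions, rose by 0.59 (adjusted p = 0.0013). Mpdz, a related PDZ scaffold, fell by 2.81 in MPP (adjusted p = 0.0013), from 7.21 ± 3.58 to 1.03 ± 0.982 CPM. It also fell by 1.84 in ST-HSC (adjusted p = 0.0091), which was lost without the 3 libraries named above (adjusted p = 0.130).

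Of 15 tested endothelial transcription factors, 6 rose and 0 fell with age in LT-HSC (median 0.22), 40.0% of the list where 9.98% of all tested genes were higher. They include the ETS factors Fli1 (0.51, adjusted p = 6.3e-05) and Erg (0.46, adjusted p = 0.00058), and their stem cell partners Lmo2 (0.43, adjusted p = 0.00014) and Gata2 (0.56, adjusted p = 0.00049). In ST-HSC 0 of the 15 passed by edgeR, with 3 at an unadjusted p under 0.05 (median -0.04, background 5.79%). In MPP 1 fell, Tal1 (-0.50, adjusted p = 0.001), with a median of -0.07 and a background of 4.27% lower. The age effect itself differed between LT-HSC and MPP for 3 of the 15, all higher in LT-HSC. Of all tested genes 9.93% differed there, and 5.05% were higher in LT-HSC. Between LT-HSC and ST-HSC the age effect differed for 2 of the 15, both higher in LT-HSC. There 4.05% of all tested genes differed, and 1.65% were higher in LT-HSC.

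Other genes shared by endothelium and stem cells (26 tested) gave these counts with age: 12 rose and 1 fell in LT-HSC (median 0.42), 5 rose and 3 fell in ST-HSC (median -0.03), and 2 rose and 9 fell in MPP (median -0.20). In LT-HSC 46.2% of the list was higher, against 9.98% of all tested genes, and in MPP 34.6% was lower, against 4.27%. In ST-HSC 19.2% was higher and 11.5% lower, against 3.58% and 2.21%. By the test of the difference, the age change was higher in LT-HSC than in MPP for 15 of the 26 and lower for 1 (9.93% of all tested genes differed), and higher than in ST-HSC for 6 and lower for 1 (4.05%). In LT-HSC the adhesion receptor Adgrl4 rose by 1.06 (adjusted p = 4.4e-08) and Vwf, von Willebrand factor, by 1.84 (adjusted p = 4e-06). In MPP Emcn, the sialomucin endomucin, fell by 1.71 (adjusted p = 3.5e-06), and Robo4, a guidance receptor used in stem cell homing, by 0.69 (adjusted p = 0.00083). The medians of the 6 genes were 0.31, -0.36 and -0.64 in the same order.

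The RNAs closest to each gene over the 24 libraries were found by Pearson's r of log2(CPM + 1) among 9412 genes. The libraries share 6 groups, so r takes in the group levels, and it is given as a description. For Tek these were Hacd4 (0.970), Ndn (0.970) and Plxnc1 (0.967), and for Tie1 Dlg2 (0.981), Prkg1 (0.980) and Eng (0.978). For Esam they were Naip5 (0.988), Arhgef12 (0.984) and Csgalnact1 (0.979). Jam2, with its peak in aged LT-HSC, lay closest to Rdh10 (0.955) and Rarb (0.949). Jam3 lay closest to Kcnk5 (0.919), Epb4.1l4b (0.917) and Zfp111 (0.908), and Pecam1 to Pdgfrb (0.916), Ccl9 (0.914) and Il1r1 (0.906).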

How the data were processed

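The authors deposited 1 table of whole-number read counts per gene symbol, with column totals that differ, so no normalization is visible in it. Reads went through Trim Galore, HISAT2 and featureCounts on mm10, per the submitters' processing notes. The tool versions, the annotation and the strand setting were not given in the sources used here. Per the labels' protocols, cDNA was primed with not-so-random primers and libraries were made with Nextera XT, without strand marks or molecular identifiers.

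Genes passing filterByExpr (14205) were fitted with edgeR 4.0.16 in R 4.3.3 (TMM factors, quasi-likelihood, 1 mean per group, 24 libraries, 18 residual degrees of freedom) for 12 comparisons. Alternatives used DESeq2 1.42.0, limma 3.58.1, other scalings, no filter, fewer groups, a replicate block and each library left out. The replicate block was shared across ages for the age comparisons and set within each age for the others. The method was tested on simulated data. Levels per kb use GENCODE vM21 exon lengths, which may differ from the authors' annotation. Within groups, the chi-square per degree of freedom between library pairs was 6.06 to 25.4, so none was counted as a repeat. Genes named were the 6 members, the genes of smallest p in each list (up to 4 per age comparison) and the 3 most alike, and some genes that meet this rule are not reported here. The members, lists and tests were chosen with earlier results of these data known.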

Additional observations from a re-analysis of the deposited data

Results flagged for a closer look

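In 4 of 36 groups of 4 libraries, 1 library lay far from the other 3, and chance alone flags about 1 in 20 such groups. Tek was highest in young ST-HSC library 4, at 30.4 CPM. Tie1 was highest in aged ST-HSC library 1, at 291 CPM. Jam2 was lowest in aged LT-HSC library 4, at 56.3 CPM, and the age change without that library was 2.41. Pecam1 was highest in young MPP library 4, at 175 CPM.

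The effect of age differed between populations for 3 genes by edgeR's test of the difference. For Jam2 the change in LT-HSC exceeded that in ST-HSC by 2.73 and that in MPP by 3.03 on the log2 scale. Between LT-HSC and MPP the age changes differed by 0.75 for Tie1 and by 1.51 for Tek.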

How the results depend on the processing

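Over 72 comparisons of the 6 genes and 1278 alternatives, 61 changed a call or a direction. The number of the 6 genes called with age in LT-HSC went from 1 to 2 with limma-voom, with only these groups in the model and with a replicate block shared across ages. It was 1 to 2 with a library left out. In ST-HSC it went from 1 to 2 with DESeq2, with only these groups and with the block, to 0 without the 3 libraries set apart, and was 0 to 1 with a library left out. In MPP it was 3, and 1 to 3 with a library left out, and for aged ST-HSC against MPP 5, and 3 to 5. Directions reversed 8 times, in values that did not pass: Esam with age in MPP (0.00186 without aged MPP library 2, lowest -0.34), Jam3 between LT-HSC and MPP age effects (-0.0163, -0.0966, -0.0250 and -0.0430 without aged LT-HSC 2, aged MPP 3, aged MPP 4 or young LT-HSC 3, highest 0.29), Jam3 in aged ST-HSC against MPP (0.0687 without aged MPP 2, 0.00772 without the 3 libraries, lowest -0.32), and Pecam1 between LT-HSC and ST-HSC age effects (0.0402 without young LT-HSC 4, lowest -0.20). The cause was not tested. Same-numbered libraries correlated at -0.0584 to 0.177 (24 pairs, median 0.0439, 6 over 0.1; other numbers, median -0.0162), so the numbers were not taken as pairs. With 4 mice per age and 4 libraries in each group, libraries of different populations of an age must share mice, but no label says which do. A library correlated best with its own number in 25 of 48 checks, where 12 would match with no sharing by number. That is a hint from the data that the numbers follow the mice. With the block shared across ages, Esam with age in LT-HSC (adjusted p = 0.0483) and Tie1 in ST-HSC (0.0465) passed. That block pairs young with aged libraries of the same number, which come from different mice and correlated at -0.0558 to 0.116. With a separate block within each age, the LT-HSC to MPP difference of Esam passed (0.0498).

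Among all genes, calls with age in ST-HSC went from 823 to 534 (only these groups), 543 and 503 (without young ST-HSC 2 or 3) and 453 (without the 3 libraries), and in MPP from 1391 to 914 (without aged MPP 4). Aged ST-HSC against MPP went from 4244 to 2698 without the 3 libraries. For the LT-HSC to ST-HSC difference of age effects, 575 became 965 (DESeq2), 377 (without young LT-HSC 3) and 897 (without the 3 libraries). For ST-HSC to MPP, 66 became 178 (DESeq2), 18 (limma-voom), 25 (only these groups) and 24 (without the 3 libraries). Low counts limit Tek in MPP, and Jam2 and Jam3 outside LT-HSC.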

Other observations

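Among other receptors and factors of endothelium, Kdr, the main receptor for VEGF-A, averaged 8.98 CPM in young and 32.7 CPM in aged LT-HSC and at most 0.941 CPM in each other group. Sox18, an endothelial transcription factor, averaged 5.01 ± 2.25 CPM (SD, n = 4) in young and 5.03 ± 2.40 CPM in aged LT-HSC and at most 0.667 CPM elsewhere.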
